A study of Arabidopsis thaliana with 9 samples.

Results

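The genes described here are 10 regulators and signals of the stomatal lineage of Arabidopsis thaliana, taken by locus from the 32833 loci of a deposited expression table. They are the basic helix-loop-helix transcription factors SPCH (AT5G53210), MUTE (AT3G06120) and FAMA (AT3G24140), and their partners SCRM (AT3G26744) and SCRM2 (AT1G12860). The signalling members are the secreted peptides EPF1 (AT2G20875), EPF2 (AT1G34245) and EPFL9 (AT4G12970) and the receptor-like protein TMM (AT1G80080), and the last is the polarity protein BASL (AT5G60880). They were chosen by name, with earlier results of these data known. All 10 were found in the table and had a value above 0 in all 9 libraries. The study addressed NTRC, a chloroplast thioredoxin reductase that draws its electrons from NADPH, and iron homeostasis through development, using bulk RNA-seq of 3 groups with 3 biological replicates each. Wild type Col-0 seedlings and ntrc mutant seedlings were 6 days old and had grown on MS medium in continuous light of 125 µE per square metre and second. Adult ntrc material was young rosette leaf from soil-grown short-day plants of 8 weeks, harvested 2 h into the light at the same intensity, and each adult library pooled leaves of 3 plants. The labels name neither the ntrc allele nor its background, and adult wild type was not analysed here, so that genotype was compared in seedlings alone and stage in the mutant alone.

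Stomata are pores in the leaf epidermis, each framed by a pair of guard cells that arise through a short series of divisions. SPCH starts the lineage and drives its asymmetric divisions, MUTE ends them and commits the cell to become a guard mother cell, and FAMA ends the last division and brings about guard cell fate, each acting as a dimer with SCRM or SCRM2. The peptides EPF1 and EPF2 hold back the lineage in neighbouring cells through ERECTA-family receptors and TMM, EPFL9 (also called stomagen) competes with them and promotes stomata from the mesophyll, and BASL sits at a cell pole to make the divisions asymmetric. In whole seedlings and leaves these cells are a minority, and in such bulk RNA fewer cells of a type and less RNA per cell cannot be told apart.

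The targeted gene followed the labels. NTRC stood at 130, 175 and 141 FPKM (fragments mapped to a transcript, scaled to its length and to the library's mapped fragments) in the wild type libraries, at 16.4, 19.6 and 17.4 FPKM in the mutant seedlings and at 16.1, 15.1 and 16.2 FPKM in the mutant leaves. The table was read as log2(FPKM + 1), and its upper quartile was 3.70 in all 6 seedling libraries and 2.44 in all 3 adult libraries, so the scale was set separately in the 2 stages. The sequencing depth behind the values is unknown. The 12 root markers listed for comparison summed to between 1570 and 1690 FPKM in the mutant seedlings and to between 9.36 and 12.6 FPKM in the adult leaves, where RHD6, EXPA7, NRT2.1 and PLT1 were listed at 0.

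SCRM and SCRM2 encode near-copies, and how well their reads can be told apart bears on both values. Their coding sequences were identical at 79.8% of 1275 aligned bases, and the longest identical run was 44 bases. The 120 coding bases around that run, read from the TAIR10.1 reference, are shown with the 10 bases at which the genes differ in capitals. The SCRM stretch lies at chr3:9833537-9833838 on the minus strand and the SCRM2 stretch at chr1:4385590-4385790 on the plus strand, both spans taking in an intron.
SCRM: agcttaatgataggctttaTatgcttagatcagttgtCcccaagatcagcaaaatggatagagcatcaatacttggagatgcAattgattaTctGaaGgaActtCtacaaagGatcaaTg
SCRM2: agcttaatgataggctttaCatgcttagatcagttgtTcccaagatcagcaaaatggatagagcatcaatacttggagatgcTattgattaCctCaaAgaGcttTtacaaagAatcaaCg
A read lying wholly inside the shared run would fit both genes. The longest identical run in the other 6 pairs compared, among the 3 peptide genes and among SPCH, MUTE and FAMA, was between 9 and 15 bases, and their identity was between 58.2% and 72.9%.

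The regions just upstream of the 3 peptide genes are shown because the lineage's transcription factors belong to a class that binds E-boxes, the 6-base motif CANNTG, which was searched on the plus strand and, being its own reverse complement, thereby on both. Each window holds the 250 bases before the annotated gene start in TAIR10.1, written along the gene's strand, with E-boxes in capitals. They lie at chr2:8983815-8984064 on the minus strand for EPF1, at chr1:12472618-12472867 on the plus strand for EPF2 and at chr4:7587100-7587349 on the minus strand for EPFL9.
EPF1: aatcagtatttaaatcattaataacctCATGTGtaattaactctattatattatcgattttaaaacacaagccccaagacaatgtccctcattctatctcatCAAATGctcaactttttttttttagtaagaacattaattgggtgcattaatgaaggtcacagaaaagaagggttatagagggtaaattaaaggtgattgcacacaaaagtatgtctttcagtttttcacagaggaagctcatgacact
EPF2: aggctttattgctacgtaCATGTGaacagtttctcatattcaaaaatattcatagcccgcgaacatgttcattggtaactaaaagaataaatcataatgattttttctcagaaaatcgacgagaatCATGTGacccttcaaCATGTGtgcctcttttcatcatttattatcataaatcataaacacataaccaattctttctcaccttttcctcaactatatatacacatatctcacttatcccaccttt
EPFL9: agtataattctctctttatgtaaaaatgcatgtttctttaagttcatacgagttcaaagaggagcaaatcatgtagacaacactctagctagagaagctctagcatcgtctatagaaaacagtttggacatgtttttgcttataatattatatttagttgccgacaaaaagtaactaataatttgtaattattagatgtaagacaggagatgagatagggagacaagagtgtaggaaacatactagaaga
EPF2 holds 3 E-boxes, all with the letters CATGTG, EPF1 holds 2, and EPFL9 holds none in this window. Among the 10 genes 5 had an E-box in the window, against 55.3% of 27438 such windows across the genome. None of the 10 had the G-box CACGTG, which is itself an E-box and was present in 6.49% of windows.

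Before any contrast, the 10 genes spanned more than an order of magnitude of FPKM, a scale per transcript length on which genes may be ranked. In wild type seedlings SCRM was highest, followed by SCRM2, EPFL9, TMM, FAMA, EPF2, BASL, SPCH, EPF1 and MUTE. The ranges of neighbours in that order overlapped between EPFL9 and TMM and all the way from EPF2 to EPF1, so those orders did not exceed the spread of 3 libraries. In the mutant seedlings the first 5 kept their places and were separate from one another, and MUTE was again lowest and separate from the rest. In the adult mutant leaves the order opened with EPFL9, which was separate from SCRM2 and SCRM, these 2 overlapping, while EPF1, EPF2, MUTE, SPCH and BASL overlapped their neighbours at the foot. Summed over the 10 genes, the level was 57.3 to 69.1 FPKM in wild type seedlings, 59.9 to 68.1 FPKM in mutant seedlings and 41.0 to 50.4 FPKM in adult leaves on their own scale.

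**Figure D1:**
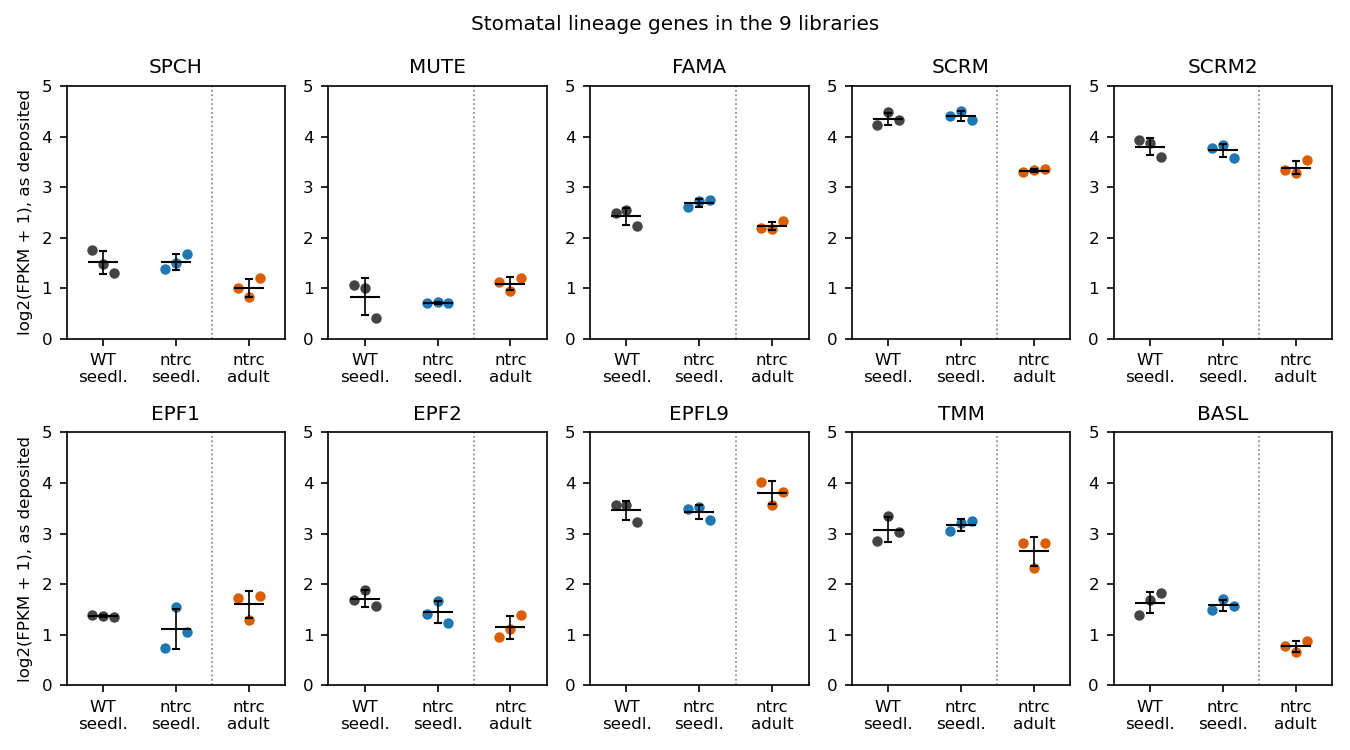
Deposited log2(FPKM + 1) of each of the 10 stomatal genes, one panel per gene and one point per library, with the mean (long bar) and SD (error bars) of 3 libraries per group. SCRM lies highest in seedlings and MUTE lowest, EPFL9 lies highest in adult ntrc leaves, and the dotted line parts the seedling and adult values, whose scales were set separately.

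In seedlings none of the 9 genes tested passed the threshold between genotypes, and FAMA was the gene among the 10 whose groups did not overlap. The contrast was fitted with limma, without a replicate block, over 18818 genes that reached 1 FPKM in at least 3 of the 6 libraries. Of these, 5 genes passed a Benjamini-Hochberg adjusted p of 0.05, which is 0.0266% of those tested. Groups that did not overlap, as for FAMA, were found in 1014 of the 18818 genes with the mutant higher and in 823 with it lower. Of the 10, 9 were tested and 0 passed, while 943 genes of the 18818 had an unadjusted p below 0.05, and none of the 9 was among them. MUTE missed the filter on low values. With replicate number as a block, 73 genes passed (0.388%) and again none of the 9, the smallest adjusted p among them being 0.426 in limma for EPF2, and 2185 genes had an unadjusted p below 0.05, EPF2 among them. The count of 5 genes became 24 without mutant replicate 1, 3 without wild type replicate 1 or mutant replicate 2 and 2 without wild type replicate 2 or 3, and none of the 9 genes tested passed in any of these fits.

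SPCH was at 2.35, 1.77 and 1.47 FPKM in wild type and at 1.61, 1.81 and 2.21 FPKM in mutant seedlings. The ranges lay on top of each other, and the log2 fold change of 0.01 had a 95% interval of -0.35 to 0.37 (SE 0.15). MUTE was at 1.10, 1.01 and 0.331 FPKM in wild type and at 0.621, 0.645 and 0.62 FPKM in the mutant, so that the wild type libraries themselves differed more than the genotypes did. In a fit without the filter its log2 fold change was -0.12, with a 95% interval of -0.55 to 0.30. FAMA, the last of the 3 to act, was at 4.61, 4.84 and 3.68 FPKM in wild type and at 5.04, 5.57 and 5.73 FPKM in the mutant. All 3 mutant values lay above all 3 wild type values, as did those of 5.39% of all genes tested, and the log2 fold change of 0.27 (95% interval -0.00 to 0.54) had an unadjusted limma p of 0.052 and an adjusted p of 0.947.

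The partners overlapped between genotypes. SCRM was at 17.8, 21.3 and 19.1 FPKM in wild type and at 20.3, 21.8 and 19.0 FPKM in mutant seedlings, with a log2 fold change of 0.07 (95% interval -0.15 to 0.29). SCRM2 was at 14.2, 13.7 and 11.1 FPKM against 12.6, 13.2 and 10.9 FPKM. It was the lower of each same-numbered pair in the mutant, by a log2 fold change of -0.08 in all (95% interval -0.35 to 0.20), and the groups overlapped.

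Of the peptides, EPF2, which acts early in the lineage, was at 2.20, 2.70 and 1.97 FPKM in wild type and at 1.67, 2.17 and 1.35 FPKM in the mutant. It was lower in the mutant library of all 3 same-numbered pairs, but the groups overlapped and the log2 fold change of -0.27 (95% interval -0.63 to 0.08) had an adjusted limma p of 0.947. With the replicate block the interval was -0.55 to -0.00, with an unadjusted limma p of 0.0492. EPF1, which acts later and enforces the spacing of stomata, was at 1.62, 1.58 and 1.55 FPKM in wild type and at 0.671, 1.90 and 1.07 FPKM in the mutant. The wild type values were close together and the mutant values were spread around them, for a log2 fold change of -0.26 (95% interval -0.73 to 0.21). EPFL9 was at 10.8, 10.9 and 8.41 FPKM in wild type and at 10.3, 10.4 and 8.57 FPKM in the mutant. Replicate 3 was the low library in both genotypes, and its log2 fold change was -0.03 (95% interval -0.32 to 0.26).

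The receptor-like protein TMM was at 6.21, 9.15 and 7.17 FPKM in wild type and at 7.25, 8.26 and 8.55 FPKM in the mutant, a log2 fold change of 0.10 (95% interval -0.23 to 0.42). BASL was at 1.63, 2.22 and 2.52 FPKM in wild type and at 1.78, 2.24 and 1.95 FPKM in the mutant, a log2 fold change of -0.05 (95% interval -0.39 to 0.28). Both ranges overlapped between genotypes. On the log2(FPKM + 1) scale the intervals allow differences of up to 0.73 in the case of EPF1, so a missed threshold does not show that the levels were equal. That scale compresses genes near 1 FPKM, and with a pseudocount of 0.1 the log2 fold change of EPF1 was -0.47 (SE 0.34).

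**Figure D2:**
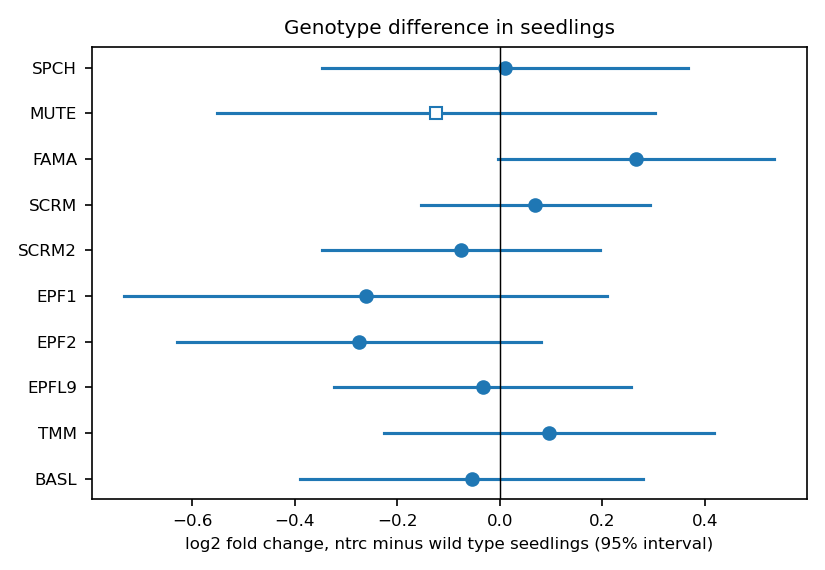
Log2 fold change, ntrc minus wild type seedlings, with its 95% interval from limma on log2(FPKM + 1), 3 libraries per genotype. The open square is MUTE, fitted without the filter on low values. In these fits without a replicate block all 10 intervals include 0, and that of FAMA reaches it only at its lower end, whereas the blocked interval of EPF2 ended just below 0.

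No gene of the 9 lists around the pathway passed the adjusted threshold in the seedling contrast fitted without a replicate block. This held for 16 tested receptors and MAP kinase cascade members, 5 other peptides of the family and proteases, 6 polarity partners and 14 other lineage and upstream regulators, whose median log2 fold changes were -0.00, 0.05, 0.12 and -0.02, against 0.00 over all genes. The smallest p in these 4 lists belonged to BSL1 (-0.06), AT1G20160, annotated as a subtilisin-like protease (0.37), BRXL4 (0.15) and SCAP1 (0.26), each with an adjusted limma p of 0.947 or above. In the dividing cell, other epidermis, mesophyll and root lists it belonged to KNOLLE (0.26), DCR (0.26), CAB3 (0.41) and ESB1 (-0.73), each with an adjusted limma p of 0.947. Of the 13 tested guard cell markers, 13 had a positive fold change (12 after quantile normalization) and a median of 0.16, where 51.2% of all genes were positive. Their summed level was 792 to 995 FPKM in wild type and 1040 to 1130 FPKM in mutant seedlings, but without the myrosinases TGG1 and TGG2 the other 12 summed to 177 to 200 and 181 to 218 FPKM, which overlap. TGG2, a myrosinase of guard cells and myrosin cells, was at 45.1, 38.0 and 31.8 FPKM in wild type and at 72.0, 60.3 and 63.0 FPKM in the mutant. The mutant libraries were all above the wild type ones in TGG2, with a log2 fold change of 0.76 (SE 0.14) and an adjusted limma p of 0.797, which became 0.0337 with the replicate block. The markers of dividing cells summed to 126 to 133 FPKM in wild type and 135 to 142 FPKM in the mutant, and the root markers to 1390 to 1720 and 1570 to 1690 FPKM. The part of these shifts in the values of FAMA and the other members was not tested.

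The comparison of adult ntrc leaves with ntrc seedlings joins stage, tissue, day length, growth medium and library kit, which cannot be told apart: adult libraries came from ribosomal RNA depletion of total RNA and seedling libraries from an mRNA kit. A factor per library, the median ratio over genes, put the stages on a common scale, and the direction of a single gene depends on that step. On this scale 8 of the 9 tested stomatal genes were higher in the leaves and 0 lower, and 8 were higher after quantile normalization, whereas on the deposited scale 1 was higher and 6 were lower. The background was large in each case: of 18986 genes 33.4% were called higher and 36.8% lower by median ratio, 29.1% and 42.0% after quantile normalization and 6.86% and 87.9% on the deposited scale. The median of all genes lay at -0.03, -0.12 and -1.28 under the 3 scalings in that order, and all 9 tested members lay above that median under each of them.

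EPFL9 was higher in the leaves under each scaling. Its deposited values were 10.3, 10.4 and 8.57 FPKM in mutant seedlings and 15.3, 10.9 and 13.2 FPKM in leaves, without overlap. The log2 difference was 1.79 by median ratio (SE 0.13, adjusted limma p 1.39e-05), 1.67 after quantile normalization and 0.39 on the deposited scale (adjusted limma p 0.0190). EPF1 was at 0.671, 1.90 and 1.07 FPKM in mutant seedlings and at 2.32, 1.45 and 2.41 FPKM in leaves, which overlapped on the deposited scale. It rose by 1.40 on the log2 scale by median ratio (SE 0.20, adjusted limma p 0.000618), and on the deposited scale the difference of 0.49 missed the threshold (adjusted limma p 0.0694). EPF2 was at 1.67, 2.17 and 1.35 FPKM in seedlings and at 0.926, 1.14 and 1.61 FPKM in leaves, and its log2 difference was 0.60 by median ratio (SE 0.15, adjusted limma p 0.00900) and -0.30 on the deposited scale (adjusted p 0.0915). With a pseudocount of 0.1 the median-ratio differences were 2.22 for EPF1 and 0.96 for EPF2, so the size of the difference for these low genes depends on the pseudocount.

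MUTE was also higher in leaves, both on the deposited scale and by median ratio. It stood at 0.621, 0.645 and 0.62 FPKM in mutant seedlings and at 1.17, 0.927 and 1.29 FPKM in leaves, without overlap, and the fit without the filter gave a log2 difference of 1.09 by median ratio (SE 0.10, adjusted limma p 0.000131). SPCH, at 1.61, 1.81 and 2.21 FPKM in seedlings and 0.991, 0.775 and 1.29 FPKM in leaves, gave 0.37 by median ratio (adjusted limma p 0.0369; 0.60 with a pseudocount of 0.1) and -0.51 on the deposited scale. Its call was lost in 5 of the 6 fits that left out 1 library, with adjusted limma p up to 0.128, and only the fit without adult replicate 2 kept it. FAMA, at 5.04, 5.57 and 5.73 FPKM in seedlings and 3.57, 3.49 and 4.0 FPKM in leaves, gave 0.79 by median ratio (adjusted limma p 7.91e-05) and -0.46 on the deposited scale.

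The partners differed between stages by unequal amounts. SCRM went from 20.3, 21.8 and 19.0 FPKM in seedlings to 8.86, 9.04 and 9.18 FPKM in leaves, a log2 difference of 0.34 by median ratio (adjusted limma p 0.00299) and -1.09 on the deposited scale. SCRM2 went from 12.6, 13.2 and 10.9 FPKM to 9.08, 8.70 and 10.5 FPKM, a difference of 1.06 by median ratio (adjusted limma p 4.51e-05) and -0.35 on the deposited scale. In the leaves both stood at about the same FPKM, whereas in seedlings SCRM was above SCRM2 in every library of both genotypes. TMM, at 7.25, 8.26 and 8.55 FPKM in seedlings and 5.98, 4.0 and 6.07 FPKM in leaves, gave 0.81 by median ratio (adjusted limma p 0.00216) and -0.52 on the deposited scale. BASL, at 1.78, 2.24 and 1.95 FPKM in seedlings and 0.712, 0.571 and 0.831 FPKM in leaves, gave 0.02 by median ratio (adjusted limma p 0.879) and -0.81 on the deposited scale (adjusted p 7.36e-05), and was the sole tested member that no common scale put higher with a call.

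**Figure D3:**
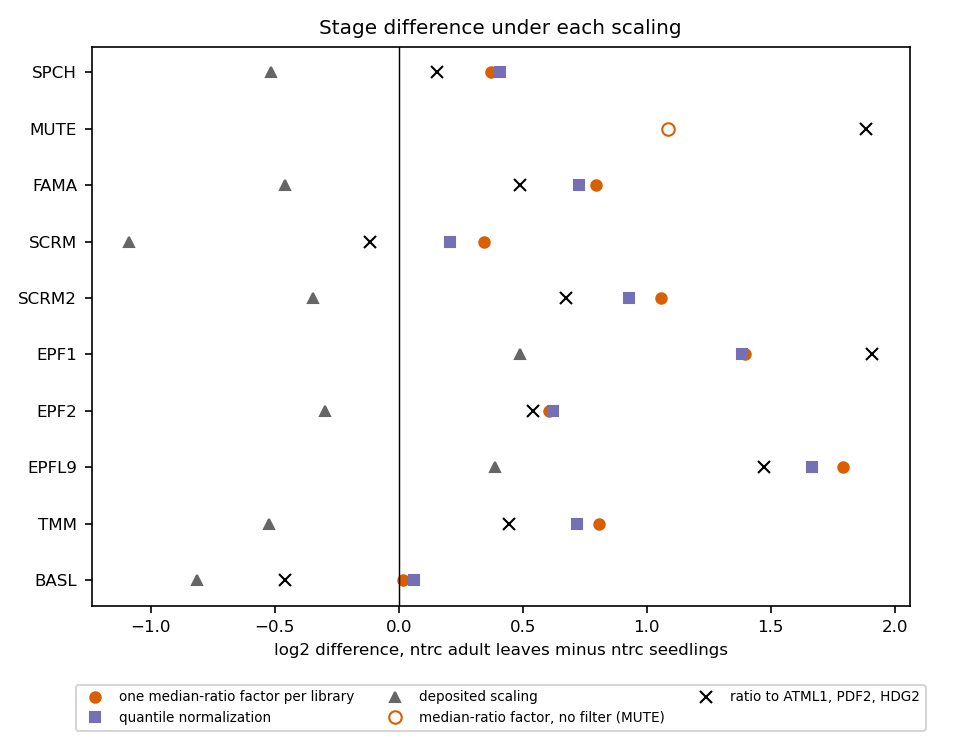
Log2 difference, adult ntrc leaves minus ntrc seedlings, of each stomatal gene under each scaling, 3 libraries per stage, with the ratio to the epidermal regulators ATML1, PDF2 and HDG2 as crosses. EPFL9 and EPF1 lie above 0 under each of them, whereas SPCH, FAMA, SCRM, SCRM2, EPF2, TMM and BASL lie below 0 on the deposited scale and above it by median ratio and quantile normalization.

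Ratios between members within a library do not depend on the scale of the library, so they show how members stood against each other. Of 8 pairs compared between mutant leaves and mutant seedlings, 7 did not overlap, where 71.7% of the pairs that can be formed from all 19910 genes above 0 in these 6 libraries did not, so the count itself is near the background. With 3 libraries against 3, the two-sided exact permutation test cannot give a p below 0.1, and those 7 pairs reached it (0.114 after Benjamini-Hochberg adjustment over the 8 pairs), so no pair can pass 0.05 by this test.

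The ratios between successive steps of the lineage did not overlap. MUTE to SPCH was 0.387, 0.357 and 0.281 in mutant seedlings and 1.19, 1.2 and 0.999 in leaves, or 3.32-fold higher in leaves. FAMA to MUTE was 8.12, 8.63 and 9.24 in seedlings and 3.04, 3.77 and 3.12 in leaves, or 2.63-fold lower. MUTE thus stood higher in leaves against both the earlier and the later factor, while FAMA to SPCH, at 3.14, 3.08 and 2.60 in seedlings and 3.60, 4.51 and 3.11 in leaves, overlapped between the stages (exact two-sided permutation p 0.2).

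Among the peptides, the later-acting EPF1 and the promoting EPFL9 both stood higher against EPF2 in leaves. EPF1 to EPF2 was 0.403, 0.876 and 0.786 in seedlings and 2.5, 1.27 and 1.5 in leaves, a 2.58-fold difference. EPFL9 to EPF2 was 6.15, 4.80 and 6.33 in seedlings and 16.5, 9.55 and 8.22 in leaves, a 1.91-fold difference. SCRM2 to SCRM was 0.624, 0.606 and 0.577 in seedlings and 1.02, 0.962 and 1.15 in leaves, a 1.73-fold difference. BASL to SPCH was 1.53-fold lower in leaves, at 1.11, 1.24 and 0.884 against 0.719, 0.736 and 0.647. TMM to SPCH was 1.23-fold higher, at 4.51, 4.57 and 3.88 against 6.03, 5.16 and 4.72, the smallest of the 7 differences.

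Between the seedling genotypes all 8 ratios overlapped, with two-sided exact permutation p between 0.2 and 1.0. MUTE to SPCH was 0.467, 0.567 and 0.225 in wild type seedlings, and FAMA to SPCH was 1.96, 2.73 and 2.5 there. Wild type replicate 3, in which MUTE was lowest, stood apart in FAMA to MUTE, at 11.1 against 4.20 and 4.82 in the other 2 wild type libraries.

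**Figure D4:**
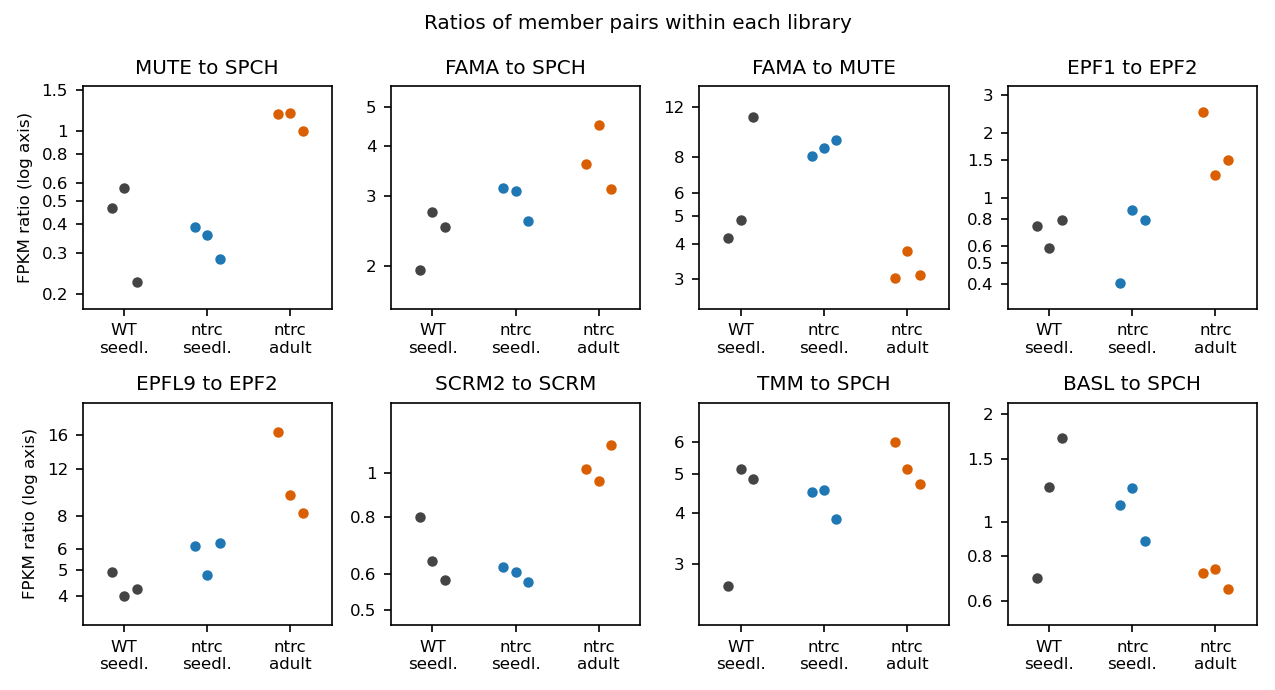
FPKM ratio of 8 pairs of stomatal genes in each library (log axis), one point per library, 3 libraries per group. MUTE to SPCH, EPF1 to EPF2, EPFL9 to EPF2 and SCRM2 to SCRM lie higher in all 3 adult ntrc libraries than in all 6 seedling libraries, and FAMA to MUTE lies lower.

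The members were also divided by the geometric mean of ATML1, PDF2 and HDG2, homeodomain regulators of epidermal cell fate. These genes also stand in the list of other lineage and upstream regulators. They were themselves called higher in leaves by median ratio, at log2 differences of 0.37 for ATML1, 0.65 for PDF2 and 0.30 for HDG2. On the deposited scale they were called lower, at -1.08, -0.81 and -0.92 in that order. The division sets the level of all 10 members against those genes and leaves the ratios among the 10 as they were. This reference was chosen after values had been seen. Between mutant seedlings and leaves, EPF1 was 3.76-fold, MUTE 3.69-fold, EPFL9 2.78-fold, SCRM2 1.59-fold, EPF2 1.46-fold and FAMA 1.40-fold higher in leaves without overlap, BASL was 1.37-fold lower without overlap, and SPCH, SCRM and TMM overlapped. Of 19910 genes treated in this way, 16.9% were separate and higher and 56.7% separate and lower. The exact permutation p of the separate members was 0.1, again the smallest possible. By rank within a library, among loci above 0, all 10 members stood higher in all adult libraries than in all mutant seedling libraries, as did 37.6% of 19910 genes.

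The genes around the pathway did not move as 1 block between the stages, and most dividing cell and polarity genes were called lower in leaves under all 3 scalings. Of all genes tested, 36.8% were called lower by median ratio, 42.0% after quantile normalization and 87.9% on the deposited scale. Of 12 markers of dividing cells, 11 were lower and 0 higher by median ratio (12 lower on the deposited scale), with log2 differences of -1.97 for KNOLLE, the syntaxin of the cell plate, and -1.91 for CDKB2;1, a mitotic kinase. Their summed level was 135 to 142 FPKM in mutant seedlings and 13.7 to 17.7 FPKM in leaves on the deposited scales. AUR1, CYCB1;1, CYCA2;2, CYCA2;4, CDKB1;1, CDKB1;2 and CDKB2;2 were below 1 FPKM in all adult libraries. These genes passed the filter through the seedlings alone, so the count leans toward lower calls. Of 6 genes listed as polarity partners, POLAR and genes of the BRX family, 5 were lower and 0 higher by median ratio and after quantile normalization. On the deposited scale 6 were lower, but their median of -1.33 was near the -1.28 of all genes there, and 3 of the 6 lay above it. BRXL4 stood at -1.17 and POLAR at -0.54 by median ratio. POLAR, BRX, BRXL1 and BRXL3 were below 1 FPKM in all adult libraries and likewise passed the filter through the seedlings alone.

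Receptors and MAP kinase cascade members were split, with 7 of 15 higher and 5 lower by median ratio, 6 and 6 after quantile normalization, and 0 and 12 on the deposited scale. SERK1, a co-receptor kinase, was lower under each scaling (-1.29 by median ratio), whereas its relative SERK4 was at 1.37 by median ratio and 0.02 on the deposited scale. MPK3, the MAP kinase below the receptors, was at 1.12 by median ratio and at -0.37 on the deposited scale. Among the other peptides and proteases 1 of 5 was higher and 2 lower by median ratio, and 0 and 4 on the deposited scale. SDD1, a subtilisin protease that limits stomatal number, was at 1.08 by median ratio and 0.13 on the deposited scale, and AT5G10310, annotated as a peptide of the same family as EPF1, was lower under each scaling (-0.84 by median ratio). Of the 14 other lineage and upstream regulators 6 were higher and 6 lower by median ratio, 5 and 6 after quantile normalization and 0 and 14 on the deposited scale, with COP1, the ubiquitin ligase that represses stomata in the dark, at 1.21 by median ratio and -0.23 on the deposited scale.

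Guard cell markers were split as well, with 7 of 13 higher and 4 lower by median ratio, 6 and 6 after quantile normalization and 1 and 11 on the deposited scale. Of the 13 tested, TGG2 was the gene called higher under each scaling, at 72.0, 60.3 and 63.0 FPKM in mutant seedlings and at 331, 339 and 374 FPKM in leaves, a log2 difference of 3.92 by median ratio and 2.40 on the deposited scale. SLAC1, which missed the filter, was at 0.565, 0.663 and 0.597 FPKM in mutant seedlings and at 0.768, 0.959 and 1.18 FPKM in leaves, without overlap. TGG1, the other myrosinase, was at 1.11 by median ratio but at -0.53 after quantile normalization and -0.43 on the deposited scale. Of 9 other epidermis markers 5 were higher and 2 lower by median ratio and after quantile normalization, and 2 and 7 on the deposited scale, with CER1, an enzyme of wax synthesis, higher under each (3.07 by median ratio) and LACS2, an acyl-CoA synthetase of the cuticle, at 1.04 by median ratio and -0.36 on the deposited scale. Of 5 mesophyll markers 1 was higher under each scaling, GLK1 (2.47 by median ratio), and 1, 4 and 4 were lower by median ratio, quantile normalization and the deposited scale. All 11 tested root markers were called lower under each scaling, as were 36.8%, 42.0% and 87.9% of all genes by median ratio, quantile normalization and the deposited scale. Their log2 differences by median ratio ran from -7.23 for PYK10 to -0.17 for SCR (adjusted limma p 0.0415). Only PYK10, SCR and SHR reached 1 FPKM in leaves, and the others passed the filter through the seedlings alone. The part that roots, dividing cells and guard cells take in the differences of the stomatal genes was not tested.

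**Figure D5:**
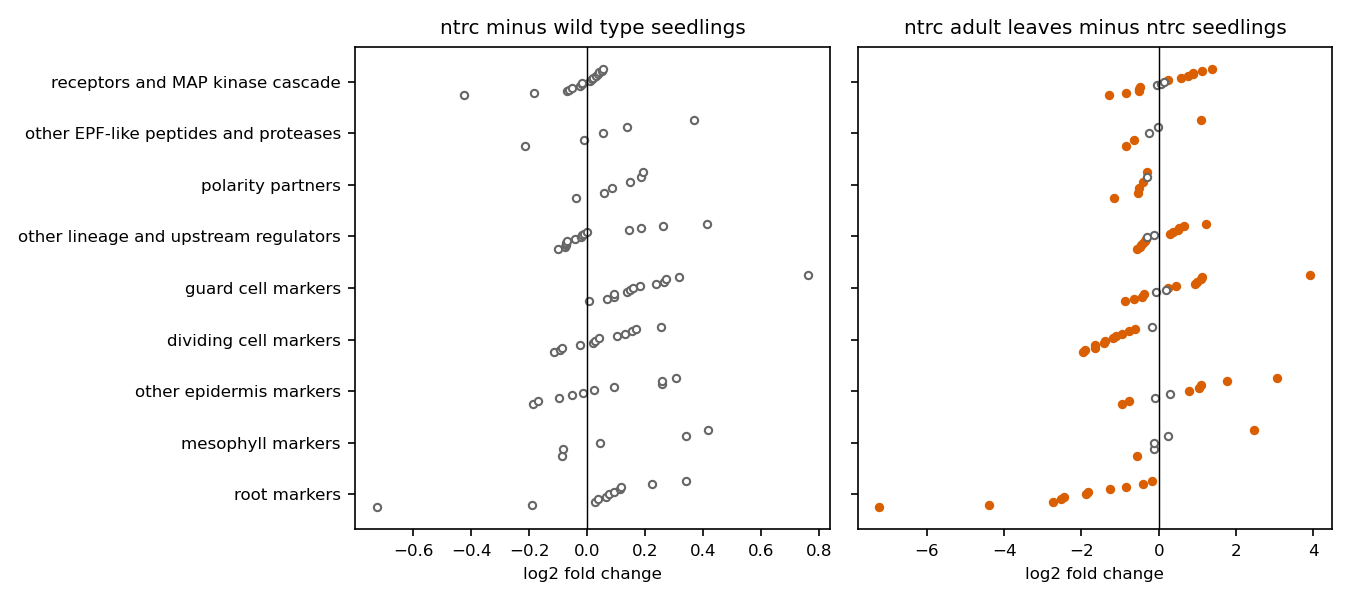
Log2 fold change of each tested gene of the 9 lists around the pathway, for ntrc minus wild type seedlings on the deposited scale (left) and for adult ntrc leaves minus ntrc seedlings by median ratio (right), with filled points for genes past an adjusted limma p of 0.05. No point is filled on the left, and on the right 11 of 12 dividing cell markers, 5 of 6 polarity partners and 11 of 11 root markers were called lower and 7 of 13 guard cell markers higher, whereas on the deposited scale 1 guard cell marker was higher and 11 were lower.

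The genes whose profile over the 9 libraries was most like that of a member were found by the root mean square difference of centred log2 values after median-ratio scaling, among 19609 genes. TPPF was nearest to FAMA (0.06), followed by AT5G10946 and RUS5 (both 0.08). For SPCH the nearest were AT4G40042, AT1G54385 and AT5G02680 (all 0.08), and for EPFL9 AT3G22210 (0.07), AT1G61300 and GIS (both 0.08). Among the members, SCRM2 was the nearest to FAMA (0.17) and came 320th in that ranking. All 9 libraries and the stage difference in scale enter these values, which describe likeness of profile alone.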

How the data were processed

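RNA was sequenced from 9 libraries, 3 in each of 3 groups taken from the sample labels. FastQC, HISAT2, StringTie and the build TAIR10 are named in the submitters' processing notes, without versions. The deposited table gives 1 value per locus and library, read as log2 of FPKM plus 1; neither base nor pseudocount is stated in the sources used here, and this reading rests on the values. Upper quartiles equal within a stage point to scaling within each stage. No column was left unused.

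Genes reaching 1 FPKM in 3 or more of a comparison's 6 libraries were fitted with limma 3.58.1 (R 4.3.3, trend and robust variance) and called at a Benjamini-Hochberg adjusted p below 0.05. For the stage comparison each library was first divided by its median ratio to the gene-wise geometric mean (factors of 0.586 to 0.591 for leaves and 1.70 to 1.72 for seedlings). That filter acts on deposited FPKM and so is stricter for leaves. Genes below 1 FPKM in all leaf libraries were therefore tested through the seedlings alone, which favours lower calls in every list. Fits were tested on simulated data. Sequences and annotation came from RefSeq's TAIR10.1. Within seedlings, deviations of same-numbered libraries correlated at 0.278 to 0.506, against -0.388 to 0.115 for other numbers. The main fits and the permutation tests of ratios left this pairing out. Fits with replicate number as a block are given beside the main fits for seedlings, and as counts of calls for the stage comparison. P-values set the difference between groups against the spread between libraries. Named genes are all members and, from each list, genes drawn from those with the smallest p or the largest called changes, not all of which are printed. Members and lists were chosen with earlier results of these data known. Alternatives were median-ratio scaling of seedlings, quantile normalization, no filter, a pseudocount of 0.1, a replicate block and each library left out. Deposited scaling was planned for the counts of stage calls, and for single members it was added after seeing the data, as was division by epidermal regulators.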

Additional observations from a re-analysis of the deposited data

How the results depend on the processing

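In seedlings none of the 9 stomatal genes tested passed the threshold under any alternative tried, nor did MUTE in its single fit, without the filter, and 9 recomputed fold changes changed sign and 90 did not. The number of genes called overall went from 5 to 73 with the replicate block, to 2 with a pseudocount of 0.1, and to between 2 and 24 when 1 library was left out, the 24 without ntrc seedling replicate 1, and the cause was not tested. Signs changed for SPCH (-0.005 after quantile normalization; -0.0904 to 0.129 with a library left out), EPFL9 (-0.144 to 0.0482), TMM (-0.0168 to 0.230) and BASL (-0.173 to 0.0364), all near 0. Seedling log2 ratios changed sign with a library left out for MUTE to SPCH (-0.60 to 0.0607), EPF1 to EPF2 (-0.31 to 0.25), TMM to SPCH (-0.22 to 0.26) and BASL to SPCH (-0.46 to 0.20).

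Between stages, the deposited scaling reversed SPCH (-0.51), FAMA (-0.46), SCRM (-1.09), SCRM2 (-0.35), EPF2 (-0.30), TMM (-0.52) and BASL (-0.81). BASL also ranged from -0.0457 to 0.104 with an adult library left out, and it missed the filter with a seedling library left out. Against the epidermal regulators SCRM (-0.12) and BASL (-0.46) reversed. SPCH lost its call without the filter (adjusted limma p 0.0524). No stage ratio changed sign. The stage numbers did not pair the libraries (correlations of -0.065 to 0.049); with a replicate block 12717 genes passed, 6060 higher and 6657 lower, against 13332 without. With the block 8 members were again higher and 0 lower. Guard cell markers called higher went from 7 to 5, root markers called lower from 11 to 10, and other lineage and upstream regulators called lower from 6 to 7. The other lists kept their counts. With a block, 3 pairs cannot give a ratio a sign-flip p below 0.25. In seedlings the block changed no call in the text other than that of TGG2. Unknown depth limits genes near 1 FPKM, which are MUTE, SPCH, EPF1, EPF2 and BASL.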

Other observations

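Wild type seedling replicate 1 stood high in several MAP kinase cascade genes around the stomatal pathway. MPK3 was at 71.2, 19.8 and 24.8 FPKM in the 3 wild type libraries and at 39.5, 29.9 and 30.7 FPKM in the mutant seedlings. MKK9, a kinase kinase of the cascade, was at 22.4, 6.04 and 9.28 FPKM in wild type and at 15, 5.51 and 5.71 FPKM in the mutant. MKK4, which acts above MPK3, was at 10.1, 5.19 and 4.89 FPKM in wild type and at 7.30, 4.25 and 5.32 FPKM in the mutant. In all 3 genes replicate 1 was the highest library of its genotype, and these genes were picked after their values were seen.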
